A study of Mus musculus with 15 samples.

Results

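The galectin genes were followed across mouse mammary tumors and control mammary glands profiled by RNA-seq. The set comprised the 8 galectin symbols Lgals1, Lgals2, Lgals3, Lgals4, Lgals7, Lgals8, Lgals9 and Lgals12, taken by name from the symbol column of the expression tables, out of 51826 genes in those tables. Trim24COE mice carried MMTV-Cre together with a piggyBac transgene in which a floxed stop cassette precedes FLAG-tagged mouse Trim24, so that Cre activity in mammary epithelium releases the transgene. From these mice, 3 tumors were labelled carcinosarcoma (mice 64, 567 and 897) and 3 were labelled carcinoma (mice 89, 273_5 and 3956). The pathology readings given with the study differ for tumors 89, 567 and 3956, so that the class of these tumors is less certain than the label. The 4 control glands (mice 133, 392, 417_3 and 517_3) came from age-matched, disease-free mice with MMTV-Cre and no transgene. The 3 non-TRIM24 tumors (219, FVB001 and FVB002) arose spontaneously in mice whose genotype is given as unknown, and they are labelled carcinomas. All libraries are labelled FVB, although the design text names an FVB and 129 background. The tumor-bearing mice differed in age by the study's own records, the labels give no age, and age was not a term in any fit. The transgene's own target, Trim24, spanned 10.6 to 24.1 TPM (the transcript abundance unit of the tables, scaled by gene length and to a fixed total per library) in the 6 tumors labelled Trim24COE and 14.54 to 22.4 TPM in the 4 control glands. Trim24 TPM therefore did not separate Trim24COE tumors from control glands, and Trim24COE is used here as the label of a library. The paper itself reports raised Trim24 RNA in such tumors by qRT-PCR, and raised TRIM24 and FLAG protein by immunostaining, against Cre-only glands. The non-TRIM24 tumors, sequenced in a separate batch, had lower Trim24 TPM, at 5.34 (219), 9.34 (FVB001) and 10.04 (FVB002). Repeat libraries of gland 133 and tumor 3956 in that batch read 11.1 and 11.49 TPM.

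Galectins are lectins that bind beta-galactosides, in particular the N-acetyllactosamine units on branched glycans of cell surface and matrix glycoproteins. They are made in the cytosol, leave the cell by a route that bypasses the classical secretory pathway, and cross-link glycoproteins into lattices. Prototype galectins (Lgals1, Lgals2 and Lgals7) hold a single carbohydrate recognition domain, tandem-repeat galectins (Lgals4, Lgals8, Lgals9 and Lgals12) join a pair of them by a linker, and the chimera galectin (Lgals3) joins its domain to a collagen-like tail through which it oligomerizes. In tumors they are studied for roles in T cell death, adhesion to matrix, vessel growth and macrophage behaviour.

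The 15 libraries came from 13 mice and were sequenced in 2 batches, of which batch 2 held the non-TRIM24 tumors and repeat libraries of gland 133 and tumor 3956. TPM carries no read depth, so the number of reads behind a value is unknown and a level near 0 cannot be given a counting limit. Between 21060 and 34209 genes were above 0 TPM per library. The control glands fell into 2 pairs by adipose tissue, with a summed TPM of 12 adipocyte markers of 27916 and 40618 in glands 133 and 392 against 1985 and 2153 in glands 417_3 and 517_3. As these were bulk samples, fewer cells of a type and less RNA per cell cannot be told apart. Nothing in the labels names separate litters or cultures within a group, and p-values measure the spread between these mice.

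The members lie on 6 chromosomes of the GRCm38 assembly (GENCODE M21 spans). Lgals2 (chr15:78850860-78855529, minus strand) and Lgals1 (chr15:78926725-78930465, plus strand) are 71196 bases apart, and Lgals4 (chr7:28833854-28841708) and Lgals7 (chr7:28863853-28866284) are 22145 bases apart on the plus strand. Lgals3 spans chr14:47367751-47386160 on the plus strand. Lgals8 (chr13:12439415-12464944), Lgals9 (chr11:78962974-78984946) and Lgals12 (chr19:7596660-7607193) are on the minus strand of 3 further chromosomes. Each value below is summed over all transcripts of a gene, so that exons, introns and UTRs are not told apart. None of the 50-base words in the transcripts of Lgals1, Lgals2, Lgals3, Lgals4, Lgals7 or Lgals9 occurred in another annotated gene. For Lgals8, 3.87% of words were shared, mostly with the overlapping gene Heatr1, and for Lgals12 the share was 0.426%.

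Lgals1 had the highest TPM of the family in every library except carcinoma 89. It encodes galectin-1, a homodimeric prototype galectin of mesenchymal cells, vessels and macrophages. Its TPM was 4017, 3890 and 7546 in carcinosarcomas 64, 567 and 897. In the carcinomas it was 743 (89), 1076 (273_5) and 4357 (3956), the last of which was read again at 5408 TPM in batch 2. Carcinoma 3956 thus lay within the carcinosarcoma range and the other carcinomas lay below it. In the control glands it was 1154 (133), 1489 (392), 114 (417_3) and 149 (517_3), and in the non-TRIM24 tumors 1880 (219), 7190 (FVB001) and 2503 (FVB002). All 3 carcinosarcomas and all 3 non-TRIM24 tumors (batch 2, not adjusted for batch) exceeded all 4 glands, whereas carcinomas 89 and 273_5 fell between the gland pairs. The order of group medians was carcinosarcomas, non-TRIM24 tumors, carcinomas and control glands, and the ranges of neighbouring groups in that order overlapped.

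Lgals2, best known from the gut epithelium, was near the floor of the tables. It stayed between 0.14 and 0.79 TPM in the carcinosarcomas and between 0.08 and 0.53 TPM in the carcinomas. Glands 417_3 and 517_3 had 1.81 and 1.34 TPM against 0.27 and 0.46 TPM in glands 133 and 392. The highest level was 6.06 TPM in non-TRIM24 tumor FVB001, beside 0.57 TPM in 219 and 1.46 TPM in FVB002. Lgals2 did not pass the filter on low values in the 4 comparisons within batch 1 and passed it in the 3 comparisons with non-TRIM24 tumors.

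Lgals7, the p53-inducible galectin of stratified epithelia, differed widely within each tumor group. It reached 758 TPM in carcinoma 89 and 341 TPM in carcinoma 273_5, but only 1.63 TPM in carcinoma 3956 (0.40 TPM in its repeat). Carcinosarcomas 64 and 567 had 172 and 121 TPM and carcinosarcoma 897 had 10.7 TPM. The 4 control glands ranged from 7.70 to 29.3 TPM, with 7.70 (133), 29.3 (392), 19.5 (417_3) and 24.1 (517_3). So 2 of 3 tumors in each Trim24COE class were above every gland and the other one was inside or below the gland range. The non-TRIM24 tumors had 1088 (219), 121 (FVB001) and 538 (FVB002) TPM, all above the glands. Its promoter is shown here because Lgals7 and its neighbour Lgals4 lie side by side and had different patterns in the tumors.
In the following promoter sequences (250 bases before and 50 bases after the RefSeq start, GRCm38.p6, 5′ to 3′), capitals mark GGGCGG (a GC box) or CCAAT, read on both strands as GGGCGG or CCGCCC and as CCAAT or ATTGG.
Lgals7, chr7:28864136-28864435, plus strand: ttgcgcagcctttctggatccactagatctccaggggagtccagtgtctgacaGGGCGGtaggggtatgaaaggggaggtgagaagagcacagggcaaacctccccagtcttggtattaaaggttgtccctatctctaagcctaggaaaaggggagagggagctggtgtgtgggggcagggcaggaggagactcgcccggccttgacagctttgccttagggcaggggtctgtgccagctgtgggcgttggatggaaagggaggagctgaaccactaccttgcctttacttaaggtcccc
Lgals4, chr7:28833544-28833843, plus strand: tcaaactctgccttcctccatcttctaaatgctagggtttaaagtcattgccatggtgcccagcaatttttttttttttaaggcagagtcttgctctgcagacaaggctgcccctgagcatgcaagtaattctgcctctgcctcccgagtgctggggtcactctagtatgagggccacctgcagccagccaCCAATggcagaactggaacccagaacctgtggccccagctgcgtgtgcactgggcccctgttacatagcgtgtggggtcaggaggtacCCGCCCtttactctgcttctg
Lgals3, chr14:47373610-47373909, plus strand: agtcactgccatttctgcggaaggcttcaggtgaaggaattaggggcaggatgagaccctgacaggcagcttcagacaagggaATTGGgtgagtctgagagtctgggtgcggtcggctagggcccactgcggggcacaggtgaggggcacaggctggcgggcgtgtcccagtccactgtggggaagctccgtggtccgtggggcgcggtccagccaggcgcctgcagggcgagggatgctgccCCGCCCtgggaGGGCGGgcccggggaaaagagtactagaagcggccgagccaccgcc
The Lgals3 window had a GC content of 67.0% with 18 CG dinucleotides, against a median of 52.7% and 7 over 32851 RefSeq promoters of the same length. It held 2 matches to GGGCGG and 1 to CCAAT. The Lgals4 window (54.0% GC, 4 CG dinucleotides) held 1 of each, and the Lgals7 window (57.7% GC, 5 CG dinucleotides) held 1 GGGCGG. None of these 3 windows held TATAAA on either strand. These motifs are common, as GGGCGG was found in 35.7%, CCAAT in 37.4% and TATAAA in 13.6% of all windows, and a match describes the letters of the window. RefSeq promoters were matched for 6 of the 8 members, not for Lgals1 and Lgals12.

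**Figure D1:**
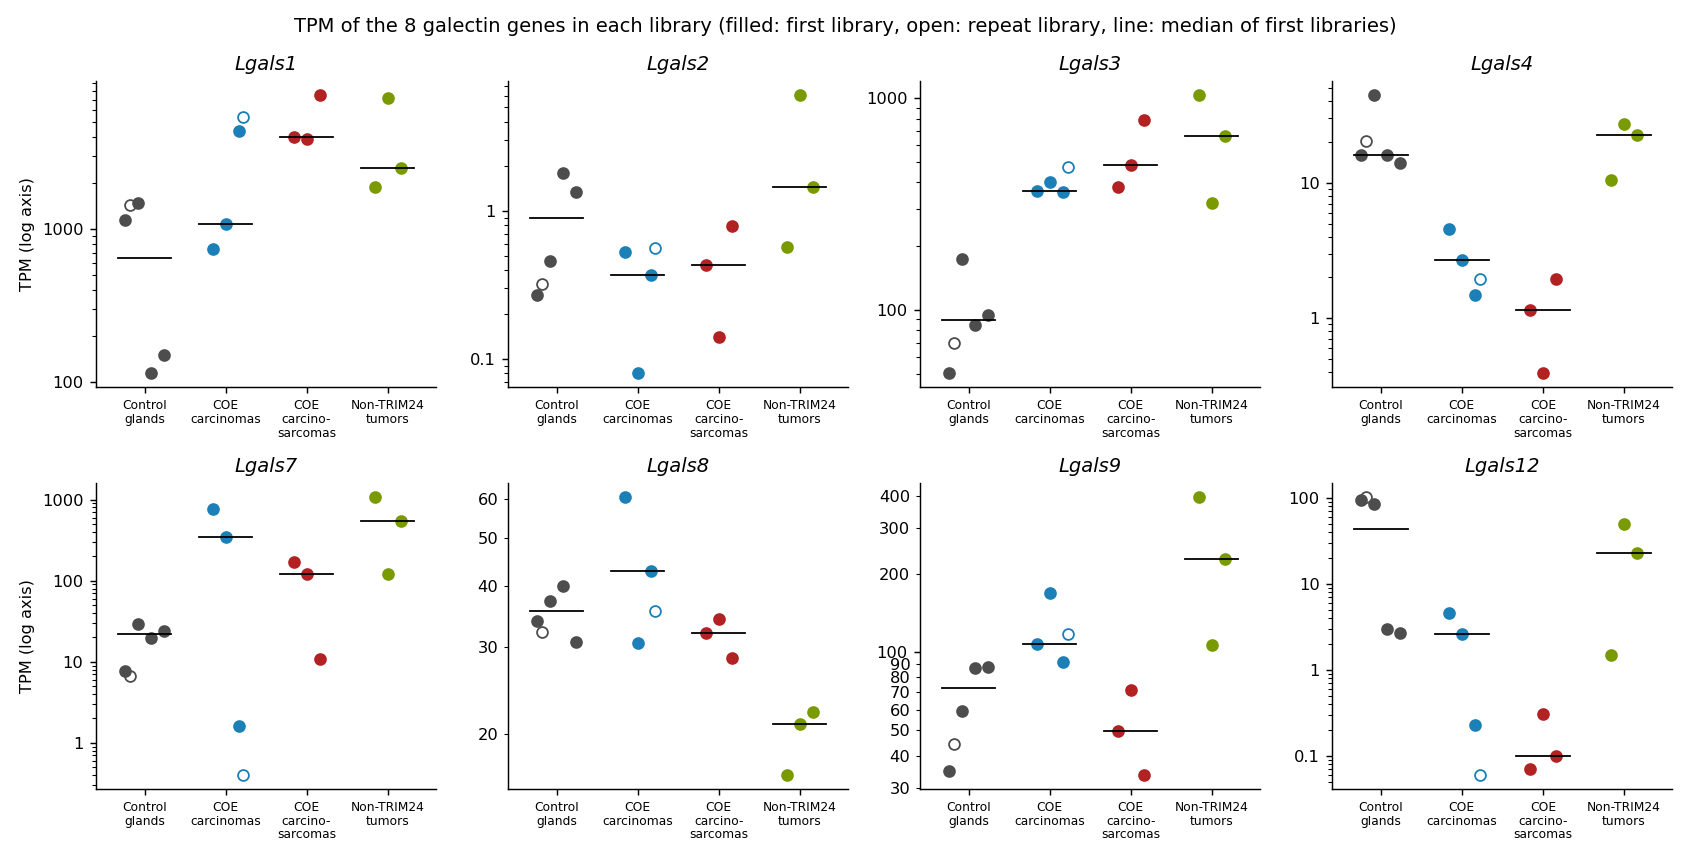
TPM of each galectin gene on log axes, 1 panel per gene, by group, with filled points for first libraries, open points for the repeat libraries of mice 133 and 3956, and lines for the median of first libraries. Every tumor lies above every control gland for Lgals3, every Trim24COE tumor lies below every gland for Lgals4, and the glands split into 2 pairs for Lgals1 and Lgals12.

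No tumor had as little Lgals3 as any control gland. Its product, the chimera galectin Mac-2, is abundant in macrophages and in many epithelia. It measured 381, 484 and 786 TPM in carcinosarcomas 64, 567 and 897, and 365, 400 and 360 TPM in carcinomas 89, 273_5 and 3956. The control glands had 50.04 (133), 174 (392), 84.9 (417_3) and 94.96 (517_3) TPM. The carcinomas were tightly grouped at 375 ± 21.5 TPM (SD, n = 3), below 2 of the 3 carcinosarcomas. Non-TRIM24 tumors had 1035 (219), 318 (FVB001) and 661 (FVB002) TPM, spanning the range of both Trim24COE classes. The order of medians was non-TRIM24 tumors, carcinosarcomas, carcinomas and control glands, and only the glands were separated from their neighbour.

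Lgals4 showed the opposite pattern in the tumors labelled Trim24COE. It encodes a tandem-repeat galectin of gut epithelium that binds sulfated glycolipids and takes part in apical protein sorting. Control glands had 16.0 (133), 44.6 (392), 16.0 (417_3) and 14.01 (517_3) TPM. The carcinosarcomas had 1.15 (64), 0.39 (567) and 1.96 (897) TPM, and the carcinomas 4.55 (89), 2.7 (273_5) and 1.49 (3956, with 1.93 in the repeat). All 6 Trim24COE tumors were thus below all 4 glands. The non-TRIM24 tumors had 10.6 (219), 27.1 (FVB001) and 22.4 (FVB002) TPM, inside or just below the gland range and above every Trim24COE tumor. In the order of medians, non-TRIM24 tumors and glands overlapped, as did carcinomas and carcinosarcomas, and these 2 pairs of groups did not overlap each other.

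Lgals8 varied least among the members above 10 TPM in every library. Galectin-8 binds integrins and marks damaged vesicles for autophagy. It stayed within 30.8 to 40.1 TPM in the glands and 28.5 to 34.3 TPM in the carcinosarcomas, while the carcinomas had 60.8 (89), 30.7 (273_5) and 43.0 (3956) TPM. The 3 non-TRIM24 tumors, at 16.5 (219), 20.9 (FVB001) and 22.1 (FVB002) TPM, were below every library of batch 1. Within batch 2, the repeats of gland 133 and tumor 3956 read 32.2 and 35.6 TPM, also above these tumors.

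Lgals9 TPM did not overlap between the Trim24COE classes. Its product is a ligand of the T cell receptor Tim-3, encoded by Havcr2. Carcinosarcomas 64, 567 and 897 had 49.96, 71.8 and 33.7 TPM, whereas carcinomas 89, 273_5 and 3956 had 107, 169 and 91.5 TPM. The control glands had 34.9 (133), 59.6 (392), 86.7 (417_3) and 87.9 (517_3) TPM, so that the carcinomas exceeded all glands, by little for 3956, and the carcinosarcomas overlapped them. The non-TRIM24 tumors had 396 (219), 106 (FVB001) and 227 (FVB002) TPM in batch 2, also above all glands as read in batch 1. Repeats of gland 133 and carcinoma 3956 in batch 2 read higher than in batch 1, at 44.5 and 117 TPM, and these comparisons of TPM are not adjusted for batch. The order of medians was non-TRIM24 tumors, carcinomas, glands and carcinosarcomas, and of the neighbours in it only carcinomas and glands did not overlap.

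Lgals12 is an adipocyte galectin that resides on lipid droplets and restrains lipolysis. It had 94.9 and 84.7 TPM in glands 133 and 392 and 2.98 and 2.7 TPM in glands 417_3 and 517_3. The carcinosarcomas were at 0.07 (64), 0.31 (567) and 0.10 (897) TPM and the carcinomas at 4.59 (89), 2.61 (273_5) and 0.23 (3956) TPM. Only carcinoma 89 entered the gland range. The non-TRIM24 tumors had 1.5 (219), 49.0 (FVB001) and 22.9 (FVB002) TPM. The 2 libraries of gland 133 differed by 1.09-fold for Lgals12, whereas the glands differed by up to 35.1-fold.

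The sum over the 8 genes was 366 and 405 TPM in glands 417_3 and 517_3, 1392 and 1919 TPM in glands 133 and 392, and 2021 to 8407 TPM in the tumors. Lgals1 held 84.5 to 89.8% of this sum in the carcinosarcomas. In the carcinomas the Lgals1 share ran from 36.3% in tumor 89 to 89.7% in tumor 3956, in the glands from 31.1 to 82.9%, and in the non-TRIM24 tumors from 42.4 to 91.7%. In carcinoma 89 the Lgals7 TPM was above the Lgals1 TPM, the only library in which Lgals1 was not the highest member.

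**Figure D2:**
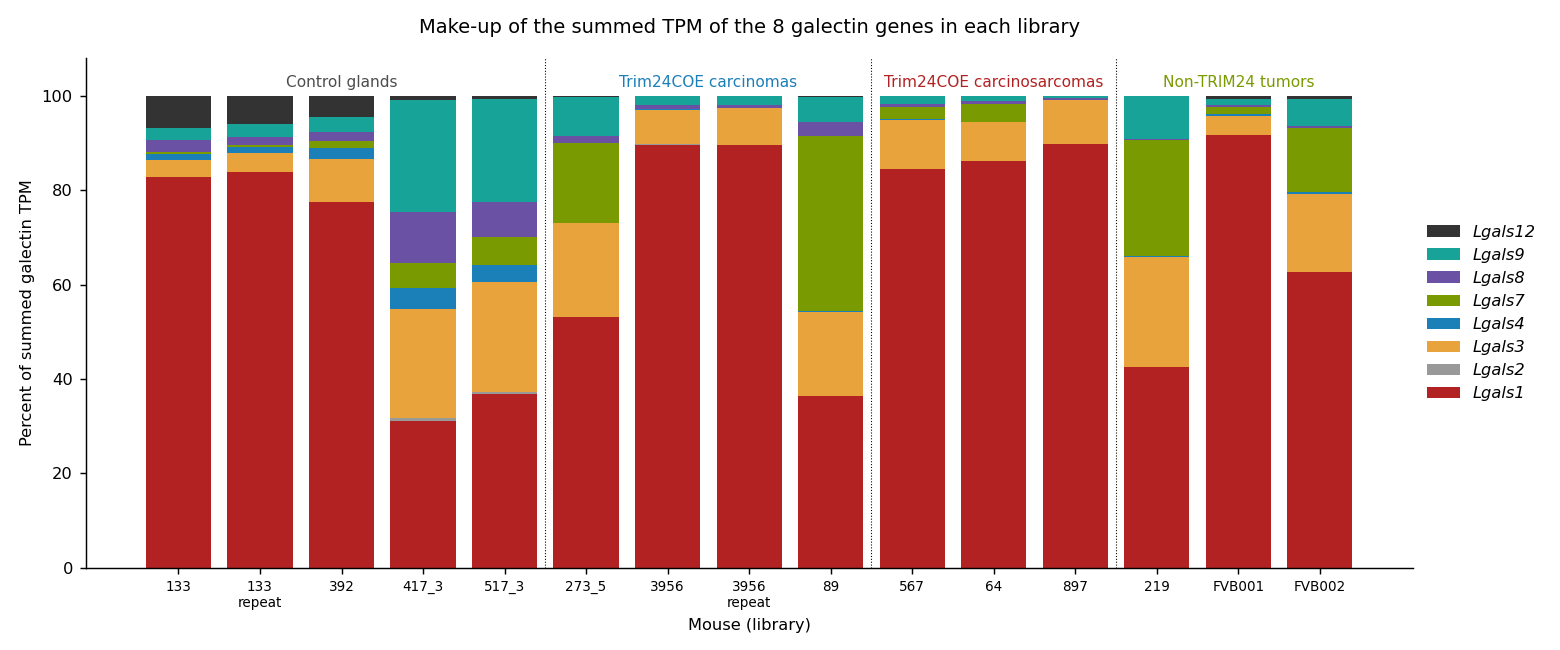
Percent of the summed TPM of the 8 galectin genes held by each gene, 1 stacked bar per library, with repeat libraries beside the first library of mice 133 and 3956. The 3 carcinosarcomas are dominated by Lgals1 (84.5 to 89.8%), and carcinoma 89 and non-TRIM24 tumor 219 have the smallest Lgals1 shares among the tumors.

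The first comparison asked which galectins differed between Trim24COE tumors and MMTV-Cre glands, within batch 1. Lgals3 averaged 462 ± 165 TPM over the 6 tumors (SD) beside 100.92 ± 52.3 TPM over the 4 glands (SD). It rose by a log2 fold change of 2.26 ± 0.34 (SE, limma adjusted p = 0.00177), higher in 6 of 6 tumors than in every gland. Lgals4 averaged 2.04 ± 1.45 TPM and 22.7 ± 14.6 TPM (SD) over the same libraries, and it fell by 2.93 on the log2 scale (SE 0.43, limma adjusted p = 0.00162), lower in 6 of 6 tumors than in every gland. Lgals12 was lower by a log2 fold change of -3.34 (SE 1.00, limma adjusted p = 0.0414), and below every gland in 5 of 6 tumors. It passed the filter on low values only through the glands, as 2 of the 6 tumors reached 1 TPM, so that it had to differ and its p supports nothing. All log2 fold changes are on the scale of log2(TPM + 1), which understates changes of low genes such as Lgals4 and Lgals12. Of the 8 members, 7 passed the filter. Apart from Lgals12, the calls were thus 2, Lgals3 and Lgals4, and 17.1% of 15196 genes tested passed the same threshold, 7.96% as higher and 9.13% as lower in tumors. Of all genes tested, 7.39% were higher and 7.20% lower in tumors with no overlap, as Lgals3 and Lgals4 were. Lgals1 did not pass at a log2 fold change of 2.72 ± 0.87 (SE, limma adjusted p = 0.0531), with 4 of 6 tumors above all glands. Lgals7 (1.96 ± 1.37, limma adjusted p = 0.349), Lgals8 (0.06 ± 0.24, limma adjusted p = 0.888) and Lgals9 (0.27 ± 0.43, limma adjusted p = 0.698) did not pass either, and the 95% confidence interval for Lgals8 was from -0.46 to 0.58.

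The calls for Lgals3 and Lgals4 held when each of the 10 mice was left out and when either gland pair was left out. The Lgals12 call was lost when any of 6 mice was left out (64, 133, 392, 567, 897 or 3956, limma adjusted p from 0.0708 to 0.114). Without glands 133 and 392 together its log2 fold change was -1.06 (limma adjusted p = 0.291), and with the adipocyte list as a covariate it was -0.24 (limma adjusted p = 0.681). Every Trim24COE tumor had a lower adipocyte marker sum (at most 1525 TPM) than every gland (at least 1985 TPM). The covariate is thus confounded with group in comparisons with glands. As Lgals12 is itself an adipocyte gene, the loss of its call with this covariate supports nothing. Lgals1 passed without glands 133 and 392 (4.37, limma adjusted p = 0.00830) and had a log2 fold change of 1.06 without glands 417_3 and 517_3 (limma adjusted p = 0.401). Leaving out any 1 of mice 89, 133, 273_5 and 392 also brought Lgals1 past the threshold, with limma adjusted p of 0.0287, 0.0472, 0.0427 and 0.0362 in turn.

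The next comparisons took each tumor class apart and share the same control glands. In carcinosarcomas against control glands, Lgals1, Lgals3 and Lgals4 passed the threshold, beside 23.0% of 15287 genes tested (9.83% higher and 13.1% lower in carcinosarcomas). The median log2 fold change of all genes was -0.12 here, and with median-ratio scaling the split of called genes was 2236 higher and 1954 lower in place of 1503 and 2008. Lgals1 rose by 3.56 ± 0.94 (SE, limma adjusted p = 0.0307), or 3.68 relative to that median. Lgals3 rose by 2.51 ± 0.44 (SE, limma adjusted p = 0.00697), or 2.63 relative to the median. Lgals4 fell by 3.35 on the log2 scale (SE 0.47, limma adjusted p = 0.00301). These 3 members did not overlap the glands in any of the 3 tumors, as did not 15.4% of genes tested on the higher side and 21.6% on the lower side. Lgals12 was also below all glands in 3 of 3 carcinosarcomas, with a log2 fold change of -4.01 ± 1.24 (SE, limma adjusted p = 0.0511). Lgals12 and Lgals4 passed the filter only through the glands here (0 and 2 of 3 carcinosarcomas reached 1 TPM), so that they had to differ, and their p-values in this comparison support nothing. The Lgals1 call was lost without any 1 of mice 64, 417_3, 517_3, 567 and 897 (limma adjusted p from 0.0539 to 0.106), and it held without either gland pair (5.22 without 133 and 392, 1.90 without 417_3 and 517_3). The Lgals1 call was also lost with no filter on low values (limma adjusted p = 0.105). Without carcinosarcoma 897, the Lgals7 log2 fold change was 2.92 (limma adjusted p = 0.0189) in place of 1.71 (limma adjusted p = 0.206).

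In carcinomas against control glands, 2 members passed, Lgals3 with a log2 fold change of 2.02 ± 0.39 (SE, limma adjusted p = 0.0364) and Lgals4 with -2.51 ± 0.48 (SE, limma adjusted p = 0.0348). Of 15479 genes tested, 3.50% passed, 1.58% as higher and 1.92% as lower in carcinomas. Lgals3 and Lgals9 were above, and Lgals4 below, all glands in 3 of 3 carcinomas, a pattern of 10.7% of genes tested in each direction. Lgals9 had a log2 fold change of 0.89 ± 0.39 (SE, limma adjusted p = 0.234) and did not pass. Lgals1 (1.87 ± 1.06, limma adjusted p = 0.360) and Lgals12 (-2.68 ± 1.32, limma adjusted p = 0.295, again in the fit only through the glands) did not pass. The Lgals3 call was lost without any 1 of 5 mice (89, 273_5, 417_3, 517_3 or 3956, limma adjusted p from 0.0887 to 0.110) and the Lgals4 call without any 1 of 6 (these and 133, limma adjusted p from 0.0520 to 0.114). With the adipocyte list as a covariate, which is confounded with group here, neither passed. The log2 fold changes were then 2.07 for Lgals3 (limma adjusted p = 0.0579) and -1.95 for Lgals4 (limma adjusted p = 0.0617). Their log2 fold changes with 1 mouse left out stayed between 1.73 and 2.33 for Lgals3 and between -2.80 and -2.14 for Lgals4. Without glands 417_3 and 517_3, Lgals3 did not pass (1.99, limma adjusted p = 0.0728). Without glands 133 and 392, Lgals1 passed at 3.53 (limma adjusted p = 0.0469). Without carcinoma 3956, the Lgals7 log2 fold change was 4.73 (limma adjusted p = 0.0274) in place of 2.20 (limma adjusted p = 0.522).

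Carcinosarcomas and carcinomas were then compared directly. No member passed in this limma fit, in which 0.698% of 14193 genes passed (0.113% higher and 0.585% lower in carcinosarcomas) and 15% had an unadjusted p under 0.05. By that unadjusted measure 2 members were counted. One of them was Lgals9, with a log2 fold change of -1.24 ± 0.36 (SE, unadjusted p = 0.0110, limma adjusted p = 0.215), lower in 3 of 3 carcinosarcomas than in every carcinoma, as were 14.4% of genes tested. The other was Lgals1, with 1.69 ± 0.67 (SE, unadjusted p = 0.0396, limma adjusted p = 0.311) and higher than every carcinoma in 1 of 3 carcinosarcomas (7.33% of genes tested were higher with no overlap). Without carcinoma 3956, the Lgals1 log2 fold change was 2.45 (limma adjusted p = 0.0463). The intervals of the other tested members, Lgals3 (0.49, 95% confidence interval -0.24 to 1.21), Lgals4 (-0.84, -1.86 to 0.17), Lgals7 (-0.49, -5.56 to 4.59) and Lgals8 (-0.44, -1.14 to 0.26), included 0. Lgals2 and Lgals12 were not tested here.

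**Figure D3:**
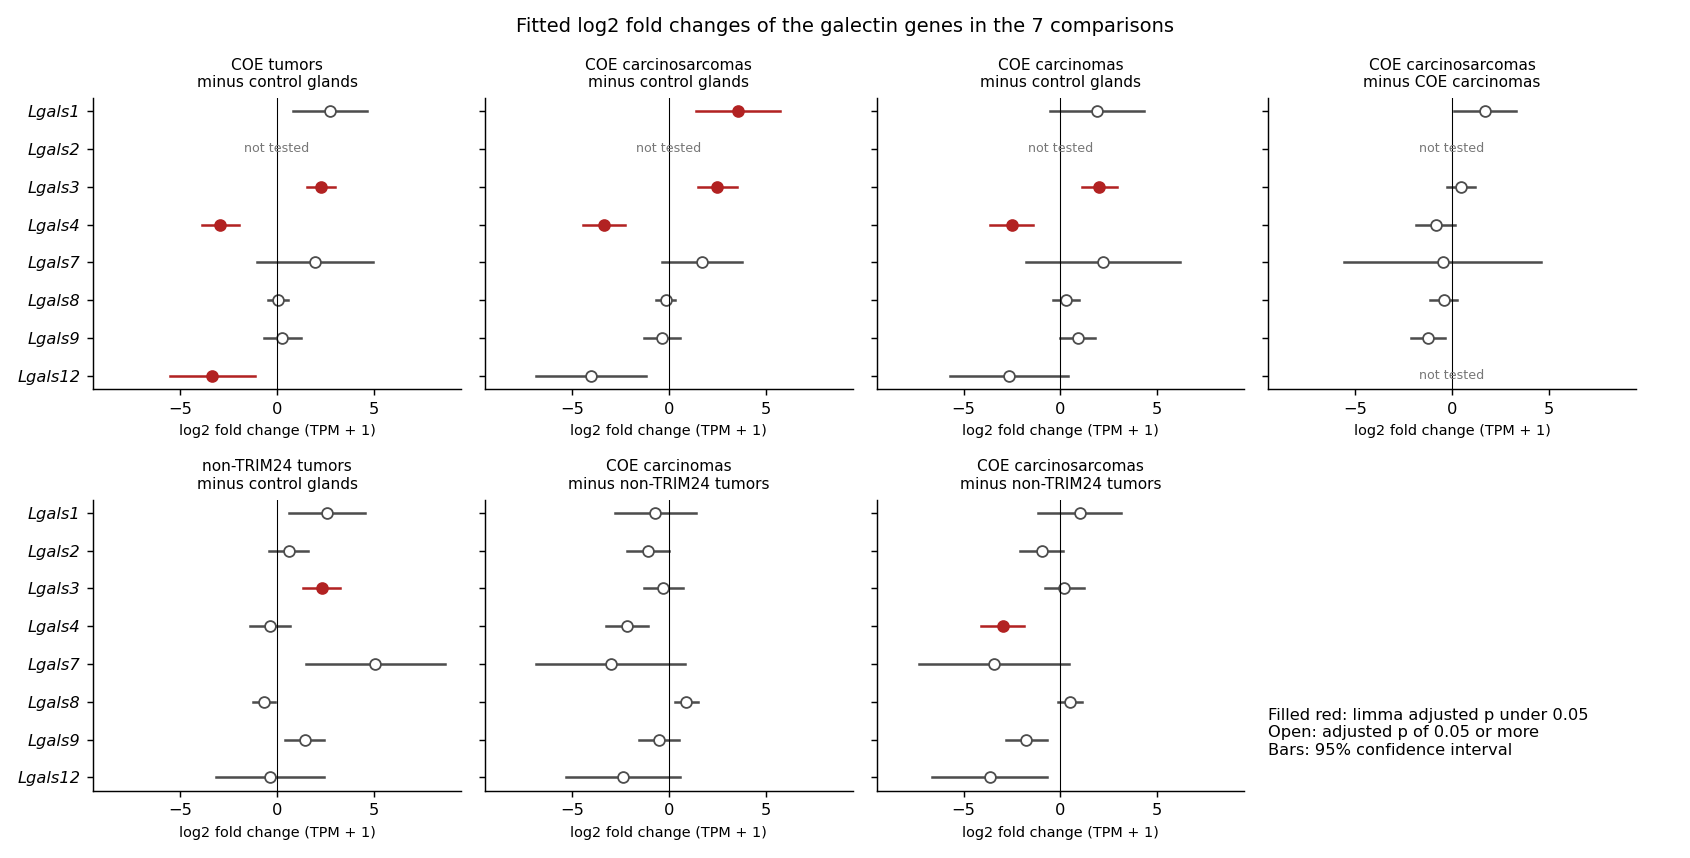
Fitted log2 fold changes of log2(TPM + 1) for each galectin gene (points) with 95% confidence intervals (bars), 1 panel per comparison, filled red where the limma adjusted p was under 0.05. Lgals3 is right of 0 in all 4 comparisons of tumors with control glands, Lgals4 is left of 0 in the comparisons of Trim24COE tumors with glands and with non-TRIM24 tumors, and the Lgals7 intervals are the widest in every panel except carcinosarcomas minus control glands, where that of Lgals12 is.

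The non-TRIM24 tumors were sequenced only in batch 2, and only mice 133 and 3956 tie the batches together in the batch term of their comparisons. Against control glands, Lgals3 alone of the 8 members tested passed the threshold, with a log2 fold change of 2.29 ± 0.44 (SE, limma adjusted p = 0.0327). There, 0.709% of 16775 genes passed (34 higher, 0.203%, and 85 lower, 0.507%, or 84 and 86 with median-ratio scaling), and the median log2 fold change of all genes was -0.27. Relative to that median the Lgals3 difference was 2.56. By TPM not adjusted for batch, Lgals1, Lgals3, Lgals7 and Lgals9 were above all glands in 3 of 3 tumors, as were 7.62% of genes tested. By the same measure, Lgals8 was below all glands, as were 23.9%. Among these members, Lgals1 (2.57 ± 0.92, limma adjusted p = 0.170), Lgals7 (5.07 ± 1.67, limma adjusted p = 0.147), Lgals9 (1.42 ± 0.46, limma adjusted p = 0.143) and Lgals8 (-0.65 ± 0.26, limma adjusted p = 0.210) did not pass. Lgals4 differed by -0.37 (95% confidence interval -1.40 to 0.65, limma adjusted p = 0.697). The Lgals3 call was lost without any 1 of mice 219, 417_3, 517_3 and FVB002 (limma adjusted p from 0.0917 to 0.155) and without glands 417_3 and 517_3 together (2.27, limma adjusted p = 0.190). Without carcinoma 3956, which enters the batch term, Lgals7 passed at 4.67 (limma adjusted p = 0.0465). Without glands 133 and 392, Lgals1 passed at 4.24 (limma adjusted p = 0.00841). Without a batch term, Lgals9 passed as well, at 1.73 (limma adjusted p = 0.0312), and so did Lgals8, at -0.81 (limma adjusted p = 0.0442).

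Within batch 2 alone there was 1 gland and 1 Trim24COE tumor, too few to test. There, Lgals3 was 69.6 TPM in the repeat of gland 133 and 471 TPM in the repeat of carcinoma 3956, beside 318 to 1035 TPM in the non-TRIM24 tumors. Lgals4 was 20.5 TPM in the repeat of gland 133 and 1.93 TPM in that of tumor 3956, beside 10.6 to 27.1 TPM. Between the batches, the repeats read Lgals1, Lgals3, Lgals4 and Lgals9 1.24 to 1.39 times as high as the first libraries in both mice, and Lgals8 0.950 and 0.829 times as high in mice 133 and 3956.

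Carcinosarcomas differed from non-TRIM24 tumors in Lgals4, which was lower by 2.99 on the log2 scale in the fit (-2.99 ± 0.51, SE, limma adjusted p = 0.0129), and lower in 3 of 3 tumors than in every non-TRIM24 tumor. Of 16775 genes, 4.76% passed (544 higher, 3.24%, and 255 lower, 1.52%, in carcinosarcomas, or 541 and 442 with median-ratio scaling), and the median of all genes was 0.13, relative to which the Lgals4 difference was -3.12. Lgals9 (-1.76 ± 0.49, limma adjusted p = 0.0581) and Lgals12 (-3.66 ± 1.39, limma adjusted p = 0.129) were also below every non-TRIM24 tumor, as were 13% of genes tested. Lgals8 (0.48 ± 0.28, limma adjusted p = 0.309) was above every non-TRIM24 tumor, as were 29.5%. These statements on overlap rest on TPM not adjusted for batch. Lgals12 and Lgals4 passed the filter only through other groups, as no carcinosarcoma reached 1 TPM of Lgals12 and 567 had 0.39 TPM of Lgals4. The p-values of Lgals12 and Lgals4 in this comparison thus support nothing. The Lgals4 call was lost without any 1 of mice 64, 567 and FVB002 (limma adjusted p of 0.0594, 0.0510 and 0.0633). Lgals9 passed without FVB001 (-2.26, limma adjusted p = 0.0292), with median-ratio scaling (-1.92, limma adjusted p = 0.0348) and without a batch term (-2.08, limma adjusted p = 0.0185).

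Carcinomas against non-TRIM24 tumors gave no member past the threshold, beside 0.0298% of 16775 genes. In this limma fit, 2 members had an unadjusted p under 0.05, as had 17.6% of genes. Lgals4 was lower in 3 of 3 carcinomas than in every non-TRIM24 tumor (-2.15 ± 0.51, unadjusted p = 0.000888, limma adjusted p = 0.147), and relative to the median of all genes, which was 0.27, it was -2.42. Lgals8 was higher in 3 of 3 carcinomas (0.91 ± 0.28, unadjusted p = 0.00634, limma adjusted p = 0.185), or 0.64 relative to the median. Lgals2 was also lower in 3 of 3 carcinomas (-1.07 ± 0.51, limma adjusted p = 0.290). It passed the filter only through glands and non-TRIM24 tumors, as no carcinoma reached 1 TPM, so that its p supports nothing. Of all genes tested, 6.22% were lower and 30.1% higher with no overlap, by TPM not adjusted for batch. Without a batch term, Lgals4 (-2.40, limma adjusted p = 0.0201) and Lgals8 (1.09, limma adjusted p = 0.0274) passed.

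Markers of other cell types moved with several members. Summed over 12 macrophage markers, TPM was 5126 to 7673 in carcinosarcomas, 2461 to 7543 in carcinomas, 1750 to 2132 in non-TRIM24 tumors and 587 to 1532 in control glands, and 10 of the 12 rose in Trim24COE tumors against glands. None of these markers was at 0 throughout a group. As a measure for this and the further marker lists, 7.96% of all genes tested rose and 9.13% fell in Trim24COE tumors against glands. In carcinosarcomas against glands these shares were 9.83% and 13.1%. Lgals1 and Lgals3, both known from macrophages, were also higher in the carcinosarcomas than in the glands. Gland 392 had the most macrophage marker TPM and the most Lgals3 and Lgals1 TPM among the glands. Gland 133 had the next highest marker sum (841 TPM) but the lowest Lgals3 (50.04 TPM). Carcinoma 3956 had a marker sum of 7543 TPM and the lowest Lgals3 of the Trim24COE tumors (360 TPM). Non-TRIM24 tumor 219 had a marker sum of 2132 TPM and the highest Lgals3 of all libraries (1035 TPM). The part of macrophage RNA in these results was not tested. Summed over 10 fibroblast and mesenchyme markers, TPM was 4829 to 10524 in carcinosarcomas, 609 to 3594 in carcinomas 1061 to 2364 in glands and 1371 to 2801 in non-TRIM24 tumors, and its part in the Lgals1 values was not tested. The adipocyte sum was 194 to 301 TPM in carcinosarcomas, 183 to 1525 in carcinomas, 231 in non-TRIM24 tumor 219, and 57418 and 29024 in FVB001 and FVB002, and 6 of its 12 genes fell in Trim24COE tumors. With the adipocyte covariate, which is confounded with group, the Lgals4 log2 fold change was -2.18 in Trim24COE tumors against glands (limma adjusted p = 0.0330) and -2.76 in carcinosarcomas against glands. In carcinomas against glands the call was lost, as given above. The part of adipose tissue in the Lgals4 values was not tested further. The sum of 12 basal and squamous markers was 4419 TPM in carcinoma 89, 254 in 273_5 and 169 in 3956, and 1772, 119 and 1006 in non-TRIM24 tumors 219, FVB001 and FVB002. It was 127, 72.4 and 32.85 TPM in carcinosarcomas 64, 567 and 897. The order of these sums matches that of Lgals7 within each tumor group, but not across the groups. Carcinosarcoma 64 had 172 TPM of Lgals7, whereas carcinoma 3956 had 1.63 TPM. Glands 417_3 and 517_3 had 2084 and 2176 TPM of these markers beside 19.5 and 24.1 TPM of Lgals7, and the part of such cells in the Lgals7 values was not tested. The sum of 10 luminal markers was 291 to 1417 TPM in carcinosarcomas, 2442 to 5786 in carcinomas, 923 to 4564 in glands and 509 to 4785 in non-TRIM24 tumors. In Trim24COE tumors against glands 5 of these 10 genes fell (median log2 fold change -2.28), beside the lower Lgals4. In carcinosarcomas against glands 8 of 10 fell (median -3.50). The carcinomas were lower in Lgals4 than glands 133 and 392, but had higher luminal sums than these glands (923 and 1456 TPM). Non-TRIM24 tumor FVB001, with a luminal sum of 509 TPM, had 27.1 TPM of Lgals4. The part of luminal cells in the Lgals4 values was not tested. Of 10 lymphocyte markers, 4 fell in Trim24COE tumors against glands (median -1.16), and of 8 endothelium markers 4 fell (median -1.34).

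**Figure D4:**
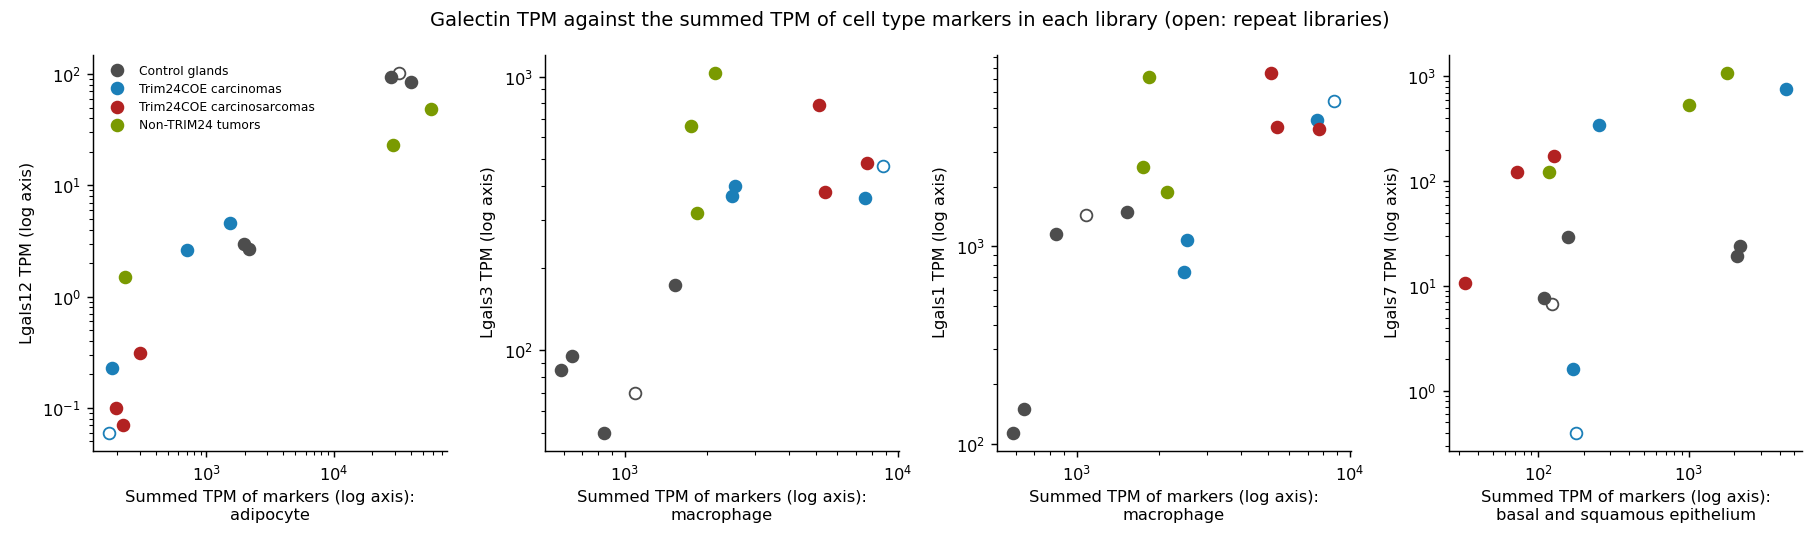
TPM of Lgals12, Lgals3, Lgals1 and Lgals7 against the summed TPM of adipocyte, macrophage, macrophage, and basal and squamous markers, 1 point per library on log axes, colored by group, with open points for repeat libraries. Lgals12 is lowest in libraries with adipocyte sums of at most 301 TPM and highest in those of at least 27916 TPM, while Lgals7 in glands 417_3 and 517_3 stays near 20 TPM at high marker sums.

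The proteins and enzymes that galectins act through were followed in 3 lists. Of 24 galectin partners, 8 rose and 4 fell in Trim24COE tumors against glands, beside 7.96% and 9.13% of all genes tested. The median log2 fold change of the partners was 0.45, beside -0.04 over all genes tested. On the higher side, 10 of 12 macrophage markers and 3 of 10 fibroblast and mesenchyme markers also rose, and their part was not tested. Fn1, which encodes the matrix ligand fibronectin, was 224 to 1885 TPM in the 6 tumors and 17.1 to 27.0 TPM in the glands, with no overlap (4.94 ± 0.60, limma adjusted p = 0.000651). Trem2, a receptor of lipid-handling macrophages, was 21.8 to 84.5 TPM in tumors and 0.70 to 8.90 TPM in glands (3.80 ± 0.52, limma adjusted p = 0.00118). Lamb1, a laminin chain, was 53.1 to 157 TPM against 26.4 to 39.2 TPM (1.46 ± 0.31, limma adjusted p = 0.00944). On the lower side, where lymphocyte and endothelium markers also fell and their part was not tested, Cd7, a galectin-1 receptor of T cells, was 0.30 to 2.59 TPM in tumors and 8.21 to 10.9 TPM in glands (-2.15 ± 0.31, limma adjusted p = 0.00148). Muc1, an epithelial mucin bound by galectin-3, was 0.61 to 19.8 TPM in tumors and 11.3 to 76.3 TPM in glands, where carcinoma 89 overlapped gland 133 (-3.14 ± 0.72, limma adjusted p = 0.0140). Kdr, the endothelial VEGF receptor, was 3.46 to 18.3 TPM in tumors and 18.2 to 29.2 TPM in glands, where carcinosarcoma 567 overlapped gland 392 (-1.46 ± 0.37, limma adjusted p = 0.0213). Lgals3bp, which encodes the secreted galectin-3 binding protein, had a log2 fold change of -0.01 ± 0.47 (SE, limma adjusted p = 0.993).

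In carcinosarcomas against glands, 7 partners rose and 2 fell, beside 9.83% and 13.1% of all genes tested. P4hb, the cell surface disulfide isomerase bound by galectin-9, was among the 3 with the smallest p on the higher side beside Fn1 and Trem2. P4hb was 847 to 890 TPM in carcinosarcomas and 176 to 298 TPM in glands (1.86 ± 0.26, limma adjusted p = 0.00320). In carcinomas against glands, 2 rose (Fn1 and Trem2) and 2 fell (Cd7 and Kdr), beside 1.58% and 1.92% of all genes tested. None of the 24 passed between carcinosarcomas and carcinomas or between carcinomas and non-TRIM24 tumors. Trem2 alone passed in non-TRIM24 tumors against glands (3.85 ± 0.66, limma adjusted p = 0.0157), where 0.203% of all genes tested passed as higher. In carcinosarcomas against non-TRIM24 tumors, 5 were higher (Fn1, P4hb, Lamp1, Itgb1 and Lamb1) and 1 was lower (Muc1). The shares of all genes tested there were 3.24% higher and 1.52% lower. Itgb1 and Lamb1 in this last comparison, like Lgals3bp, Mgat5 and St6gal1, were chosen for mention after their values were seen.

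Of 14 enzymes that build lactosamine and branched glycans, 1 rose and none fell in Trim24COE tumors against glands. Over all genes tested, 7.96% rose and 9.13% fell. All 14 enzymes had a positive log2 fold change (median 0.66). The gene that passed was C1galt1, the core O-glycan galactosyltransferase, at 15.6 to 80.6 TPM in tumors and 5.76 to 11.8 TPM in glands (1.39 ± 0.43, limma adjusted p = 0.0450). The batch 2 repeat of carcinoma 3956 read 8.64 TPM of C1galt1, inside the gland range, against 21.4 TPM in the first library. Its chaperone C1galt1c1 passed in carcinosarcomas against glands (0.90 ± 0.27, limma adjusted p = 0.0460) and against non-TRIM24 tumors (1.36 ± 0.34, limma adjusted p = 0.0396). Mgat5, which makes the branched N-glycans with the highest affinity for galectin-3, did not pass (0.68 ± 0.51, limma adjusted p = 0.382). None of the 14 passed in carcinomas against glands or against non-TRIM24 tumors, in non-TRIM24 tumors against glands, or between the Trim24COE classes.

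Sialyltransferases cap galactose and can hide galectin ligands. Of 7 listed, 6 were tested in Trim24COE tumors against glands, where 1 rose and 1 fell, beside 7.96% and 9.13% of all genes tested. St3gal4 was 27.9 to 80.2 TPM in tumors and 15.6 to 24.8 TPM in glands (1.05 ± 0.29, limma adjusted p = 0.0306). St3gal6 was 3.28 to 10.5 TPM in tumors and 15.7 to 22.4 TPM in glands (-1.61 ± 0.31, limma adjusted p = 0.00623). In carcinosarcomas against glands, St3gal2 also rose (1.73 ± 0.30, limma adjusted p = 0.00668). There, 2 thus rose and 1 fell, beside 9.83% and 13.1% of all genes tested, and in the other 5 comparisons none passed. St6gal1, whose alpha-2,6 cap blocks galectin-1 binding, did not pass (0.61 ± 0.38, limma adjusted p = 0.293). Among related galectin-fold genes, Lgalsl was tested and did not pass (-0.66 ± 0.50, limma adjusted p = 0.391), and Grifin was too low to test.

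**Figure D5:**
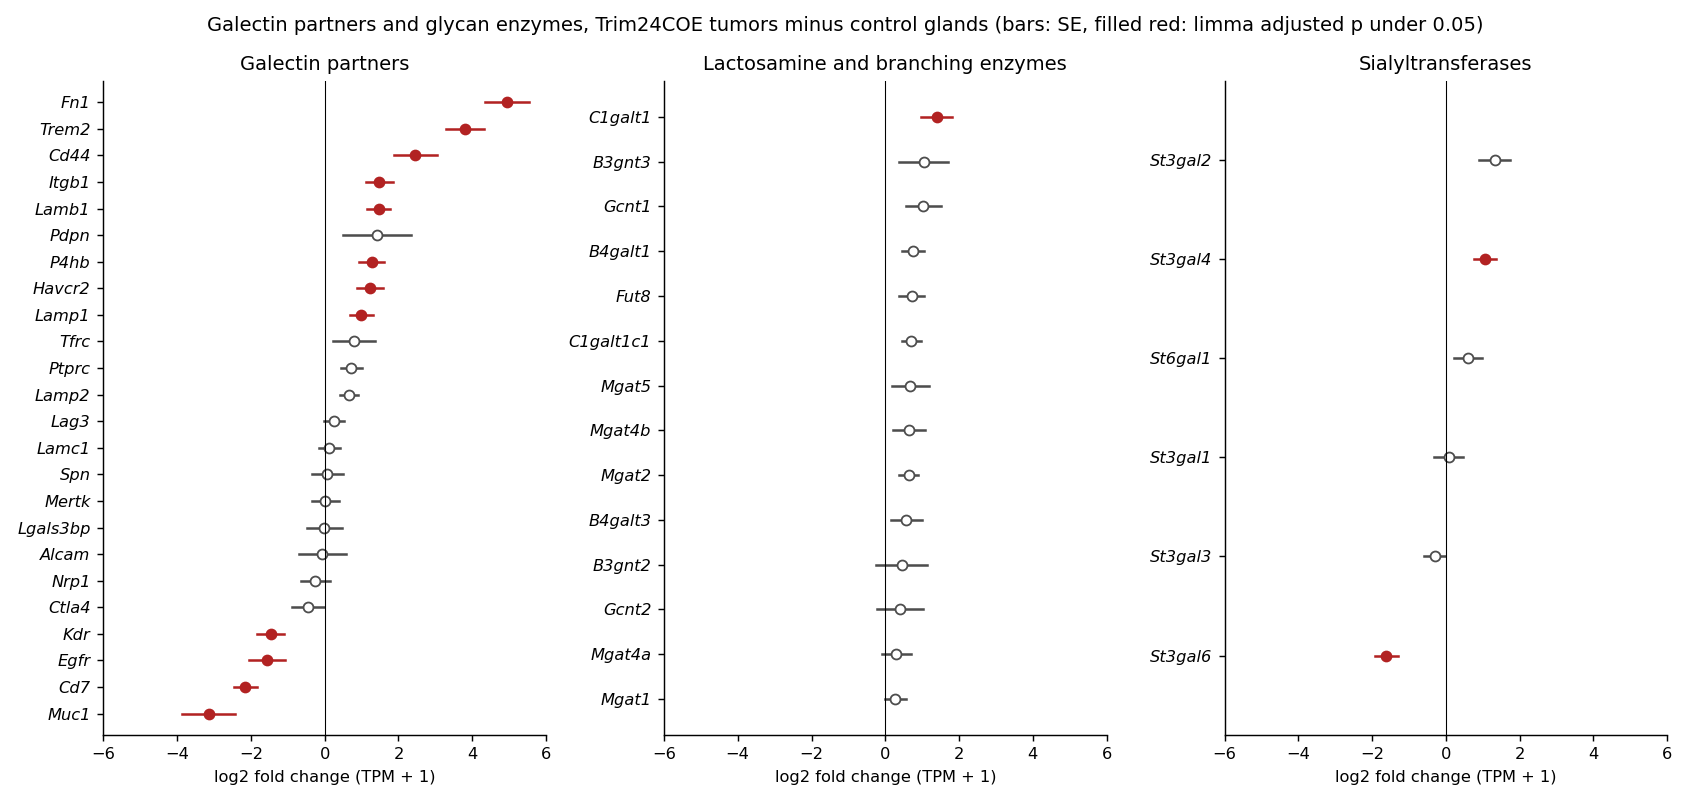
Log2 fold changes of log2(TPM + 1) in Trim24COE tumors against control glands for 24 galectin partners, 14 lactosamine and branching enzymes and 6 sialyltransferases, with SE bars and filled red points where the limma adjusted p was under 0.05. The partners spread from Muc1 at -3.14 to Fn1 at 4.94, all 14 enzymes of the second panel lie right of 0, and St3gal6 stands apart at -1.61.

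The genes whose log2(TPM + 1) followed each member most closely were taken over the 10 mice of batch 1 among 16050 genes, as a description in which tumors and glands of unlike cell makeup are pooled. For Lgals12 they were Art3, Amy1, Plin4, Hcar1 and Proca1 (Pearson r from 0.989 to 0.995), of which Plin4 is on the adipocyte list. For Lgals1 they were Ftl1, Npc2, Gpr34, Mrc1 and Commd1 (r from 0.951 to 0.966), of which Mrc1 is on the macrophage list. For Lgals3 they were Cd47, Cdkn2a, Tarbp2, Fam111a and Ms4a6d (r from 0.941 to 0.956). Lgals4 was followed by Il17rb, Acad10, Igkv6-13, Fars2 and Platr4 (r from 0.969 to 0.993). The closest genes to Lgals7 were Isg15, Phactr1, Car12, Rsph1 and Zfp771, at the lowest correlations of the members (r from 0.875 to 0.884). Those of Lgals8 were Jrkl, Pla2g4b, Krtdap, Clip4 and Cdk5r1 (r from 0.894 to 0.949), and those of Lgals9 were Tut1, Cnp, Mdk, Ovca2 and Hs3st1 (r from 0.927 to 0.952). Lgals2 was too low to be ranked.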

How the data were processed

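RNA of 13 mice (15 libraries) was profiled by the authors, who per the study's methods aligned reads to GRCm38 with STAR and deposited gene-level TPM from RSEM with GENCODE M14; the submitters' processing notes also list mm10, TopHat, Cufflinks, DESeq and edgeR. Labels and methods name different extraction and library kits, so whether reads were stranded is not settled. TPM has no depth, so no count model was used. Here limma 3.58.1 (R 4.3.3) was fitted to log2(TPM + 1) of all genes with a variance trend and Benjamini-Hochberg adjustment (threshold 0.05, two-sided). The 4 comparisons within batch 1 used the first libraries of the groups compared and genes of at least 1 TPM in at least as many libraries as there were mice in the smaller group. For the 3 comparisons that involve non-TRIM24 tumors, all 15 libraries entered 1 fit with group and batch terms, libraries of a mouse linked by an estimated correlation of 0.951, and genes of at least 1 TPM in 3 libraries. Alternatives were other pseudocounts (0.1 and 0.5), no filter, median-ratio scaling, other variance settings, pooled or averaged libraries, an adipocyte covariate, no batch term, unlinked libraries and each mouse left out. Leaving out gland pairs was chosen after seeing the data. Named genes were all members, the 5 genes most correlated with each, and for Trim24COE tumors and for carcinosarcomas against glands, up to 3 genes a direction with the smallest p from each listed pathway. Members and lists were chosen with earlier results of these data known. Fits were tested on simulated data. Positions came from GENCODE M21 and promoters from RefSeq, both on GRCm38.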

Additional observations from a re-analysis of the deposited data

Results flagged for a closer look

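In each group of 4 to 10 mice, the highest or lowest library was tested for standing apart from the others (gap to its neighbour over the range, against Dixon's 95% critical value), over 16 sets of values, of which chance flags about 1 in 20. Lgals3 was highest in carcinosarcoma 897, at 785.55 TPM among the 6 Trim24COE tumors, with a gap of 0.709 of the range against a critical value of 0.625. Without that tumor the Lgals3 log2 fold change against glands was 2.10 (limma adjusted p = 0.00379). Lgals4 was highest in gland 392, at 44.57 TPM among the 4 control glands, with a gap of 0.934 of the range against a critical value of 0.829. Without that gland the Lgals4 log2 fold change in Trim24COE tumors against glands was -2.56 (limma adjusted p = 0.00438).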

How the results depend on the processing

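Of 880 values of the members under alternatives, 786 kept their direction and their side of the threshold, 42 no longer passed, 27 passed newly and 25 changed direction. None of the 25 changed a value that had passed, and the cause of each change was not tested unless stated. The count of members past the threshold in carcinomas against glands went from 2 to 0 with no filter (more genes tested) and to 0 with the adipocyte covariate. There it was 3 without glands 133 and 392 (Lgals1 gained) and 2 without glands 417_3 and 517_3 (Lgals4 and Lgals12). In non-TRIM24 tumors against glands it went from 1 to 0 with no filter, 3 without a batch term, 0 with libraries as separate, 2 without glands 133 and 392 and 0 without glands 417_3 and 517_3. In carcinomas against non-TRIM24 tumors it went from 0 to 2 without a batch term. In carcinosarcomas against non-TRIM24 tumors it went from 1 (Lgals4, in that fit only through other groups) to 2 with median-ratio scaling, 2 without a batch term and 0 with libraries as separate. In carcinosarcomas against glands it went from 3 to 5 without glands 133 and 392 (Lgals2 and Lgals12 were in that fit only through the glands) and to 2 with no filter. It went to 4 with 0.1 or 0.5 TPM added, with all batch 1 groups in 1 fit or without glands 417_3 and 517_3. The member gained in each of these was Lgals12, in these fits only through the glands. The main count of 3 holds Lgals4, which also passed that filter only through the glands. In Trim24COE tumors against glands the count was 3, with Lgals12 in that fit only through the glands. It was 2 with no filter or with the adipocyte covariate (Lgals12 not past the threshold) and 4 with all batch 1 groups in 1 fit (Lgals1 past it). Without glands 133 and 392 it was 4 (Lgals1 and Lgals2 past the threshold, Lgals12 not). Lgals2 was in that fit only through the glands. Without glands 417_3 and 517_3 the count was 3. With 1 mouse left out, these counts ranged from 2 to 4 (Trim24COE tumors against glands), 2 to 3 (carcinosarcomas against glands), 0 to 2 (carcinomas against glands), 0 to 1 (carcinosarcomas against carcinomas), 0 to 2 (non-TRIM24 tumors against glands), 0 to 0 (carcinomas against non-TRIM24 tumors) and 0 to 2 (carcinosarcomas against non-TRIM24 tumors).

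Directions changed for log2 fold changes that had not passed. Lgals8 in carcinosarcomas against glands became 0.0045 with median-ratio scaling, and Lgals9 became 0.11 without glands 417_3 and 517_3. Lgals9 in Trim24COE tumors against glands became -0.19 without glands 133 and 392, and with 1 mouse left out Lgals9 ranged from -0.0055 to 0.51 and Lgals8 from -0.079 to 0.13. Lgals7 between the Trim24COE classes became 3.41 with the adipocyte covariate and ranged from -3.02 to 1.07 with 1 mouse left out. In non-TRIM24 tumors against glands, Lgals4 became 0.015 with libraries as separate and 0.092 without glands 133 and 392, and Lgals12 became 2.18 without those glands. There, Lgals4 ranged from -0.63 to 0.013, Lgals12 from -1.28 to 0.88 and Lgals2 from -0.026 to 1.06 with 1 mouse left out. In carcinomas against non-TRIM24 tumors, Lgals1 became 0.73 with libraries as separate, and with 1 mouse left out Lgals3 ranged from -0.74 to 0.11 and Lgals7 from -4.55 to 0.064. In carcinosarcomas against non-TRIM24 tumors, Lgals3 became -0.20 without a batch term and -0.24 with libraries as separate, and ranged from -0.25 to 0.60 with 1 mouse left out.

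Calls over all genes moved as well, from 2597 to between 1076 and 3209 in Trim24COE tumors, from 3511 to between 1345 and 5837 in carcinosarcomas and from 542 to between 46 and 1255 in carcinomas, each against glands. They went from 99 to between 0 and 293 between the Trim24COE classes, from 119 to between 6 and 2909 in non-TRIM24 tumors against glands, and from 5 to between 1 and 1500 (carcinomas) and 799 to between 13 and 2425 (carcinosarcomas) against non-TRIM24 tumors. TPM gives no depth, so the precision of low members such as Lgals2 is unknown. No paired analysis was possible because the groups share no replicate numbers.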
